A study of Gallus gallus with 4 samples.

Results

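The control library of the series is a single RNA sequencing library of chick (Gallus gallus) whole embryo, chosen by its label alone, and it is 1 of 4 libraries in all. It was made from embryo material that received DMSO, where the other 3 groups received thalidomide at 40 µg/ml, spermine NONOate at 10 µM, or both. Thalidomide is a drug that harms limb and organ formation in embryos, and spermine NONOate releases nitric oxide. Treatment was given at Hamburger-Hamilton stage 8, an early neurula stage, and total RNA was taken on day 6. Each group has 1 library, and whether this one holds 1 embryo or a pool, and of which sex, is not given in the sources used here. No other library is compared with it here, so what follows is an inventory of 1 library rather than an effect of a drug.

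By day 6 a chick embryo has formed the main organs. Its blood vessels carry nucleated red cells made in the yolk sac, its heart beats, its limb buds carry the first cartilage, and its lens has filled with crystallin fibres, which in birds are rich in delta crystallin, a protein derived from the enzyme argininosuccinate lyase. Liver, kidney and gut are present but immature. Feathers, egg proteins and most of the adaptive immune system belong to later life. A whole embryo library mixes all these cells, so fewer cells of a type and less RNA per cell cannot be told apart.

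The unit used throughout is RPM, the reads of a gene per 1000000 reads in the genes of chromosomes 1 to 21. Ranks and shares of all reads refer to these genes only. The library held 79359076 reads in these genes, the most of the 4 libraries, whose totals start at 62576258. At this depth 1 RPM stands for 80 reads and has a 95% exact (Clopper-Pearson) interval of 0.799 to 1.25. At 100 RPM the interval runs from 97.8 to 102.2. Intervals cover counting error only, since reads are not independent molecules and the library has no replicate. Transcript lengths were not used, so RPM is a share of reads, which grows with transcript length, and an order of genes here is an order of read shares.

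Of 13081 genes in the table used, on chromosomes 1 to 21, 12859 (98.3%) had a read and 10999 (84.1%) reached 1 RPM. A further 222 had none, which allows up to 0.0378 RPM each when 3 reads are taken as the limit of a count of 0. The median gene had 21.1 RPM, 2146 genes (16.4%) reached 100 and 123 (0.940%) reached 1000. Just at the threshold of 1 lay GPR103 and CMPK2 with 80 reads each, and just under it SLC23A1 with 79 reads. The counting intervals of these genes overlap, so the threshold is a convention and no boundary between expressed and silent genes.

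Reads were concentrated in a small set of genes. The 10 genes with the most reads held 7.39% of all reads, the 100 with the most held 25.5%, and the 1000 with the most held 58.8%. A set of 603 genes held 50% of the reads, and 4529 held 90%. At the other end, the 2082 genes under 1 RPM together held 0.0613% of reads.

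**Figure D1:**
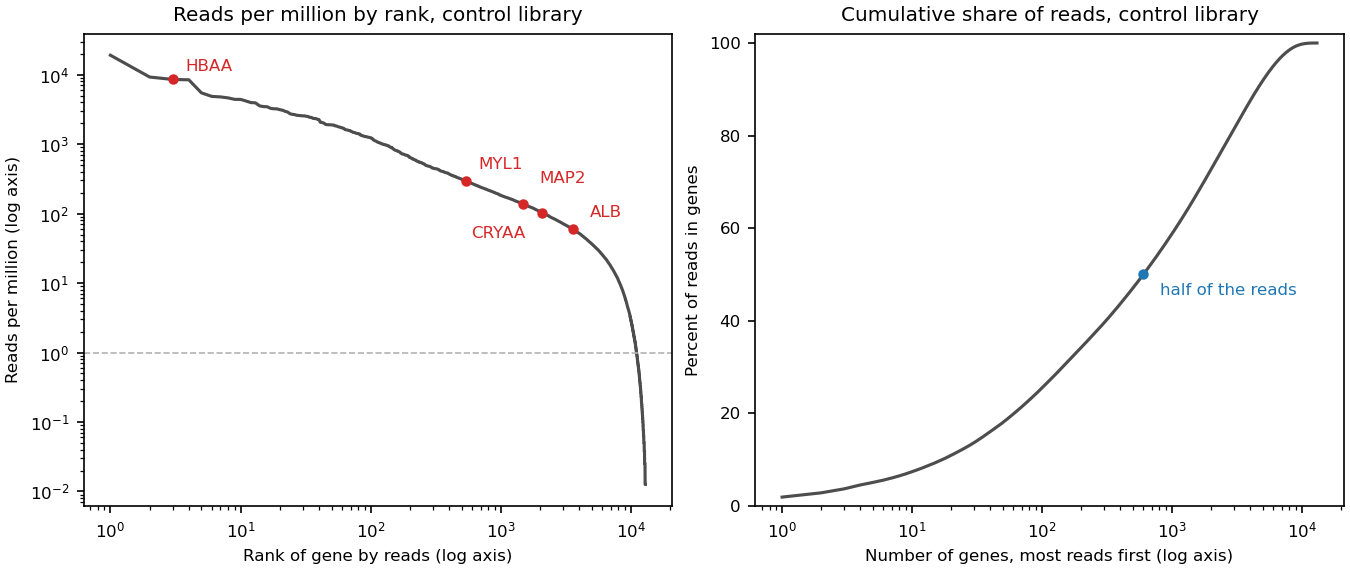
Left, RPM of each gene with a read against its rank by reads, both on log axes, with the 5 marker genes in red and a dashed line at 1 RPM. Right, the cumulative percent of reads against the number of genes, with the most read genes first; the blue point marks the 603 genes that hold 50% of the reads. HBAA is ranked 3 of 13081, and the other 4 markers lie between 59.5 and 295 RPM.

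The 5 genes chosen to mark red cells, lens, muscle, liver and neurons were all read, each with an interval far above 1 RPM. Of all genes, 84.1% reached 1 RPM and 62.4% reached 10, so passing such a level does not by itself show a tissue. HBAA, an alpha-type haemoglobin of red cells, had 8542 RPM (interval 8522 to 8562). MYL1, a myosin light chain of fast skeletal muscle, had 295 (291 to 298). MAP2, a microtubule protein of neuronal dendrites, had 139 (136 to 142). CRYAA, the alpha crystallin of the lens, had 103 (101 to 105). ALB, which encodes serum albumin, had 59.5 (57.8 to 61.2). By read share HBAA was ranked 3, MYL1 538, MAP2 1480, CRYAA 2077 and ALB 3565 among the 13081 genes.

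The most read genes were those of protein synthesis, haemoglobin and glycolysis. EEF1A, listed in RefSeq as EEF1A1, the elongation factor that brings aminoacyl-tRNA to the ribosome, came first with 19075 RPM, or 1.91% of all reads. HBG2 and HBAA followed, then GAPDH, the glycolytic dehydrogenase, with 8444. The fifth gene, ENSGALG00000011324 on chromosome 7, has no symbol in the table and had 5475 RPM. Of the 30 named genes with the most reads, 14 encode cytosolic ribosomal proteins, each at 2519 RPM or more, led by RPS3A (4871), RPS2 (4786) and RPL4 (4416), and among the others were YBX1, a cold shock protein that packages mRNA (4638), VIM, the intermediate filament vimentin (4407), and EIF4G2, a translation initiation factor (4181).

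Further genes of general cell functions followed. NPM1, the nucleolar protein nucleophosmin, had 3136 RPM, and NCL, nucleolin, had 2057. GNB2L1, the ribosomal scaffold also named RACK1, had 2687 and made up 76.9% of the reads of chromosome 16. SLC25A6, a mitochondrial ADP/ATP carrier, had 2552. DSTN, the actin depolymerising protein destrin, had 2497, CTNNB1, which encodes beta-catenin, had 2342, and CALM, calmodulin, had 2325. FTH1, the ferritin heavy chain that stores iron, had 1830.5. TPT1, a translationally controlled growth protein, had 2259.7. The 6 measured 14-3-3 genes, adaptor proteins that bind phosphorylated partners, ran from 529 to 1884, with YWHAE (1884) and YWHAQ (1698) first.

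Some genes near the top carry names that the counts cannot vouch for. MBD4, a DNA repair glycosylase, stood at 1909 RPM, at rank 46. In RefSeq its neighbour is RPL32, a ribosomal protein gene with no row of that name in the table, and its other neighbour, IFT122, had 129; the part of RPL32 reads in the MBD4 value was not tested. ITGB1BP3, named for an integrin binding protein, had 1568, next to SQRDL with 22.1. Of all genes, 104 (0.995% of reads) sit on another chromosome than RefSeq gives for their symbol. ACTB, CENPA, COL1A1 and ACTG2 are the named genes most read among them after the chromosome 19 UBB, with 1006, 974, 882 and 497 RPM, and none of the 104 enters a list below.

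In places a pair of genes had nearly the same count. HBZ on the plus strand of chromosome 14 had 151385 reads, and an unnamed gene on the minus strand of that chromosome had 151298. NDUFB2 and an unnamed gene on the other strand of chromosome 1 had 8952 and 8948. In both pairs the counts differ by at most 1% in all 4 libraries, and whether the counting used strand is not given in the sources used here. Reads of the members of such a pair cannot be told apart.

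The red blood cell list had the largest sum of the 27 tissue lists, and nearly all of it was haemoglobin. Haemoglobin is a tetramer of alpha-type and beta-type chains around haem, and the chick makes embryonic chains first and adult-type chains later. The 5 haemoglobin genes found by name held 2.56% of all reads (25596 RPM, interval 25561 to 25630.4). HBG2, on chromosome 1, had 9257 RPM and took 36.2% of the haemoglobin reads. RefSeq gives HBG2 as another name of HBBA, the adult-type beta gene, which lies beside HBE. HBAA, the adult-type alpha A gene, took 33.4%, and HBAD, the alpha D gene made in embryonic and adult cells, took 15.5% with 3967 RPM.

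The embryonic genes found by name, HBE and HBZ, took smaller shares of reads. HBE, the embryonic epsilon gene of the beta cluster, had 1922 RPM, and HBZ, the embryonic alpha-type gene also named pi, had 1908. They took 7.51% and 7.45% of the haemoglobin reads. The 3 alpha-type genes together held 56.3% of haemoglobin reads and the 2 beta-type genes found by name 43.7%. HBE1, the beta-type gene that RefSeq places beside HBBA, has no row of that name here. HBBR and HBG1, also looked for, were not found, and HBG2 is taken as HBBA by name only. The shares of adult-type and embryonic genes therefore hold for the genes found, and which type leads at day 6 is not shown. Haemoglobin genes of a type are similar in sequence, and the counting may split reads between them, so these shares are uncertain.

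**Figure D2:**
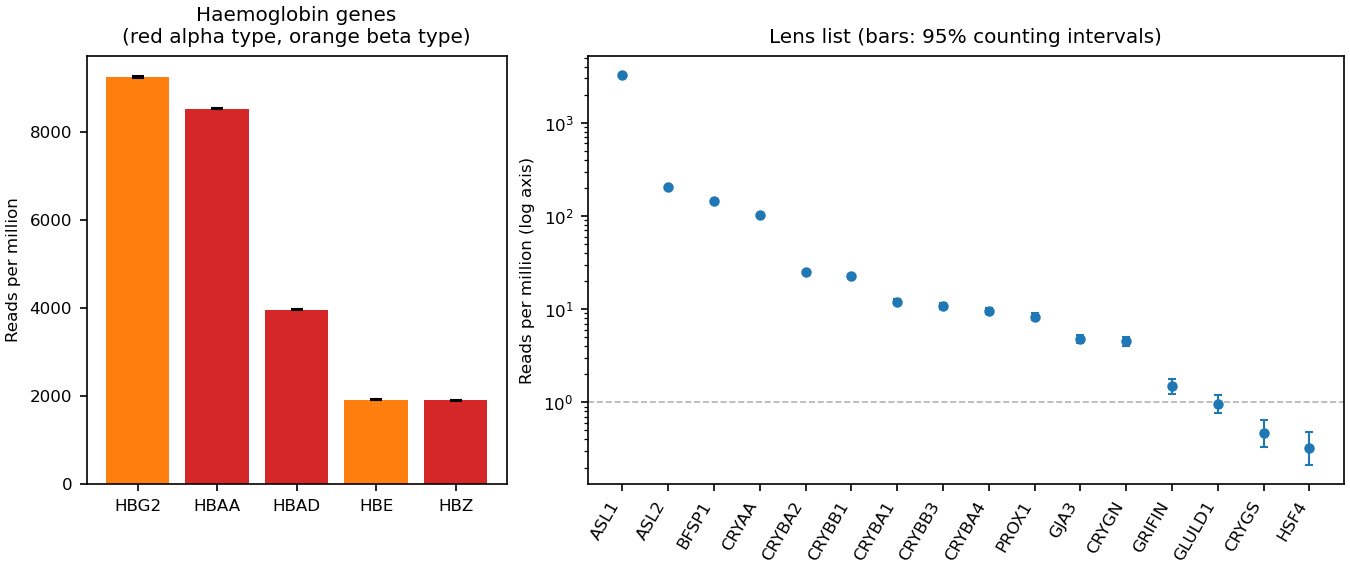
Left, RPM (axis from 0) of the 5 haemoglobin genes, with 95% counting intervals as black bars that are barely visible at this depth. Right, RPM on a log axis for 16 of the 17 lens genes found, with 95% counting intervals and a dashed line at 1. HBG2 and HBAA have 9257 and 8542, HBE and HBZ 1922 and 1908, and ASL1 stands apart from the other lens genes.

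Other red cell genes were measured as well. Of 39 symbols looked for in the red blood cell list 17 were found. All 17 had at least 2.09 RPM, where 84.1% of all genes reached 1. Among enzymes, CA2, a carbonic anhydrase, had 392, and the haem synthesis enzymes CPOX, UROD, ALAD and UROS had 106, 65.6, 31.4 and 30.02. SPTB, the red cell beta spectrin, had 78.2, and EPB42, a membrane skeleton protein, 49.7. TFRC, the transferrin receptor that takes up iron, had 76.4. H1F0, the linker histone of nucleated avian red cells (also named H5), had 59.8. RHAG, an ammonium channel of the red cell membrane, had 16.2, and the transcriptional regulators LMO2 and GFI1B had 56.0 and 2.09.

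The lens gave 3792 RPM over 17 genes, and 85.1% of that came from 1 gene. ASL1, delta 1 crystallin, had 3228 (interval 3215 to 3240.4) and was 1 of the 20 most read genes. ASL2, the delta 2 gene that keeps the argininosuccinate lyase activity, had 205. The pair are neighbouring near-identical copies, so some reads of one may be counted in the other. CRYAA was the third crystallin, and the 5 beta crystallins summed to 80.4. Of these CRYBA2 had 24.9, CRYBB1 22.9, CRYBA1 12.1, CRYBB3 10.9 and CRYBA4 9.61. CRYGN and CRYGS, of the gamma type, had 4.54 and 0.466.

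Other lens genes encode structural proteins and regulators. BFSP1, the beaded filament protein filensin, had 146. GJA3, a connexin that joins lens fibres, had 4.83. PROX1, a homeobox regulator of fibre elongation, had 8.34, while HSF4, a heat shock factor of lens, had 0.328. GRIFIN, a lens galectin, was near the threshold at 1.5, and GLULD1, which RefSeq names LGSN, had 0.970. In all, 14 of the 17 (82.4%) reached 1 RPM, beside 84.1% of all genes.

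Tissue marker lists were set side by side by the sum of their members. Over all 38 lists 1026 symbols were looked for and 663 genes were found, so every count of members covers found genes only. Counts at 1 and 100 RPM are read beside the shares of all genes, 84.1% and 16.4%. In the 27 tissue lists 475 members were found, 400 of them (84.2%) at or above 1 RPM, which is close to the 84.1% of all genes and is no feature of the markers. They held 6.45% of all reads. Sums exceeded 1000 RPM in 11 lists: red blood cell (26558), tendon and connective tissue (11944), neural progenitor (6093), bone (4850.3), lens, skeletal muscle (2487), heart muscle (2015), cartilage (1614), smooth muscle and pericyte (1445), neuron (1209) and limb (1201). A sum depends on how many members were found and on how long their transcripts are, so it gives no proportion of cells.

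**Figure D3:**
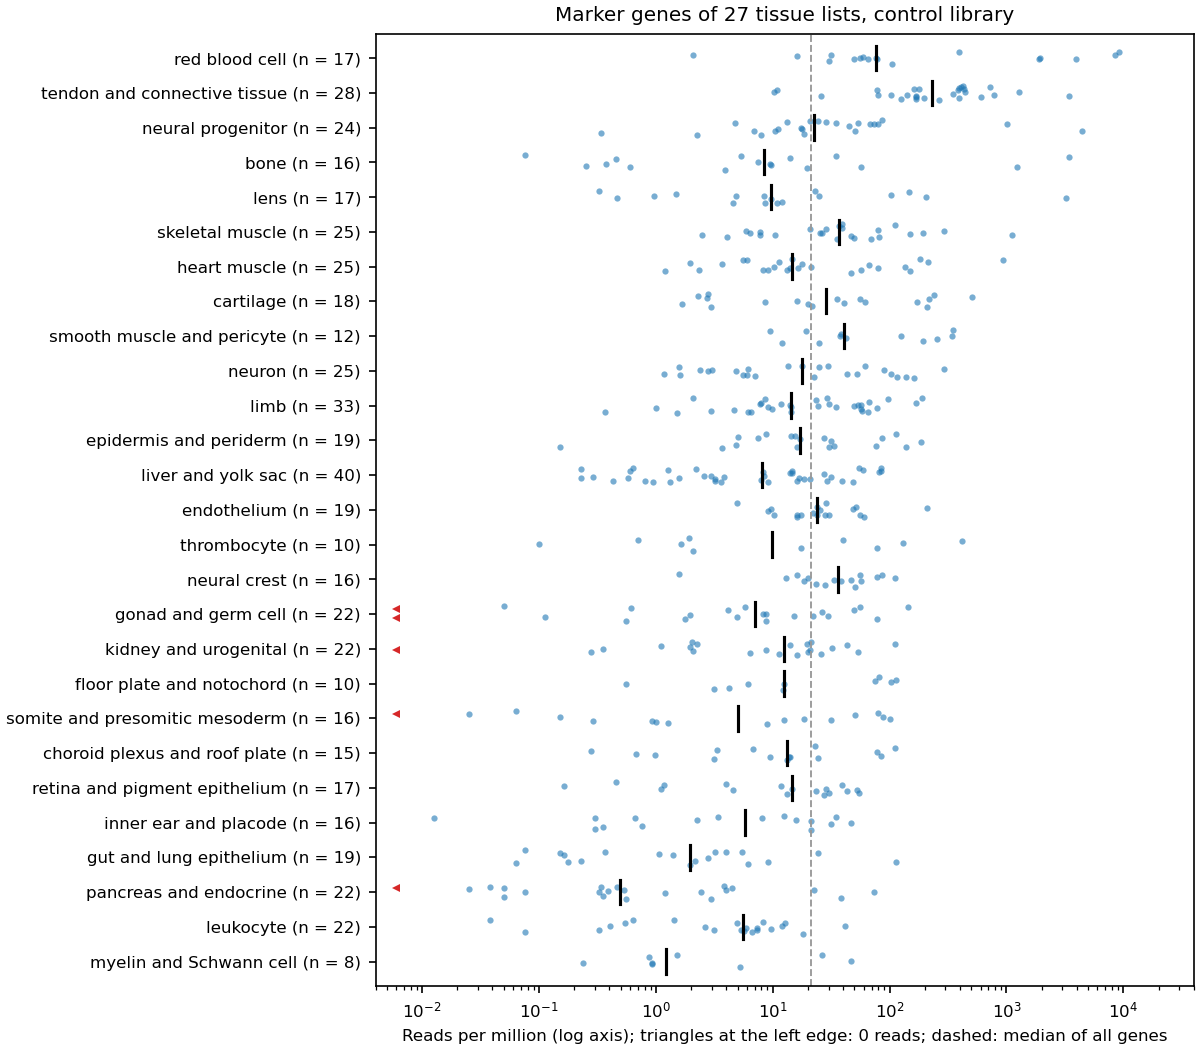
RPM (log axis) of each member of the 27 tissue lists, ordered by the sum of the list, with 1 point per gene, a black bar at the median of the list and red triangles for genes with 0 reads. The dashed line is the median of all genes, 21.1. The connective tissue list has the highest median of the lists, 229, and the pancreas and endocrine list the lowest, 0.498.

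Of 38 connective tissue symbols looked for, 28 were found. All 28 found had at least 10 RPM and 23 of 28 (82.1%) had at least 100, beside 16.4% of all genes, with a median of 229. COL1A2, a chain of type I collagen, led with 3457, followed by FN1, the matrix protein fibronectin (1287), COL5A2 of type V collagen (787), the small proteoglycans DCN, decorin (723), and LUM, lumican (606). POSTN, periostin, had 425 and TNC, tenascin C of tendon and limb mesenchyme, 141. Among the regulators PRRX1, a homeobox gene of limb and facial mesenchyme, had 167, MKX, a tendon homeobox gene, 10.8, and TCF21, a bHLH gene of visceral mesenchyme, 10.2. TNMD, tenomodulin of mature tendon, had 79.3.

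Of 33 collagen genes found by name, 32 (97.0%) reached 1 RPM and 15 (45.5%) reached 100, beside 84.1% and 16.4% of all genes. The sum of the 33 was 8446. The chains of type VI, which forms beaded filaments around cells, had 389 (COL6A1), 387 (COL6A2) and 167 (COL6A3). COL12A1 and COL14A1, which decorate collagen fibrils, had 438 and 407. The 6 basement membrane chains of type IV summed to 489.9, from COL4A3 at 1.802 to COL4A5 at 168. COL10A1, the collagen of hypertrophic cartilage that is about to become bone, had 2.73, and COL28A1 was the lowest at 0.529.

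Of 29 cartilage symbols looked for, 18 were found, and all 18 reached 1 RPM, beside 84.1% of all genes. The 18 ran from MATN3 at 1.68 to COL11A1 at 503. The fibril collagens COL9A1 and COL9A3, which bind to the surface of cartilage fibrils, had 218 and 210.0. LECT1, named CNMD in RefSeq and encoding chondromodulin, which keeps cartilage free of vessels, had 239. ACAN, the large proteoglycan aggrecan, had 35.5 and MATN4, matrilin 4, 61.4. SOX9, the regulator that starts the cartilage program, had 55.7, and its partners SOX5 and SOX6 had 19.9 and 2.81. PTHLH, the signal that delays hypertrophy, had 8.61 and its receptor PTH1R 2.28.

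Most bone markers took few reads. SPARC (1230.1) and COL1A2 made up 96.6% of the reads of the bone list, and both are also made in soft connective tissue. RUNX2, the regulator of bone-forming cells, had 3.93 RPM, ALPL, alkaline phosphatase, 9.39, and SPP1, osteopontin, 5.32. IBSP, bone sialoprotein, had 0.605, DMP1, a protein of osteocytes, 0.252, and OC-116, named MEPE in RefSeq, 0.0756 (6 reads). TNFSF11, the signal for osteoclasts, had 0.454. With 11 of 16 members at 1 RPM (68.8%), the list lay below the 84.1% of all genes.

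Skeletal muscle genes were led by TPM1, a tropomyosin that many cells use, at 1117. Of the contractile genes, MYL1 had 295, ACTA1, the skeletal actin, 149, the troponin genes TNNT3 and TNNI2 80.7 and 79.9, and MYH3, the embryonic heavy chain, 35.5. DES, the filament protein desmin, had 191 and NEB, nebulin of the thin filament, 49.1. Of the muscle regulators, PAX7 of satellite and progenitor cells had 20.7, MYF5 and MYOD1, which commit cells to muscle, 6.41 and 39.4, and MYF6, a later factor, 2.47. The acetylcholine receptor subunits CHRNA1, CHRND and CHRNG of the muscle endplate had 26.6, 7.77 and 4.10. All 25 members found, of 42 symbols looked for, reached 1 RPM, beside 84.1% of all genes.

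Of 34 heart muscle symbols looked for, 25 were found, and all 25 reached 1 RPM, beside 84.1% of all genes. ACTC1, the cardiac actin that embryonic skeletal muscle also uses, had 929.6. MYL2 and MYL3, ventricular light chains, had 213 and 148, TNNC1, the slow and cardiac troponin C, 181, MYBPC3, a myosin binding protein of heart, 80.0, and MYH15, the ventricular heavy chain of birds, 136. The cardiac regulators TBX5, HAND2, GATA5, GATA6, GATA4 and NKX2-5 had 56.7, 66.5, 46.8, 9.14, 1.94 and 3.65. NPPA, the atrial peptide hormone, had 13.3, and HCN4, a pacemaker channel, 1.20.

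Across myosin heavy chains the non-muscle genes took most reads. MYH10 and MYH9, which drive cell shape and division, had 1095 and 430.0, or 63.1% of the reads of the 11 genes together. MYH11, the smooth muscle heavy chain, had 342. The sarcomeric genes ran from MYH4 at 242 to MYH13, of extraocular muscle, at 3.05. Smooth muscle genes other than MYH11 included MYLK, the kinase that activates smooth muscle myosin (348), CALD1, caldesmon (256), and MYOCD, the smooth muscle coactivator (9.50). Pericyte genes PDGFRB, CSPG4, KCNJ8 and RGS5 had 37.3, 24.9, 19.4 and 12.1.

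Of endothelium, the lining of vessels, 19 genes were found of 31 symbols looked for. Each had between 4.96 and 207 RPM, where 84.1% of all genes reached 1. CDH5, the vascular cadherin, was first, followed by PECAM1, a junction protein (60.7). The receptors of vascular endothelial growth factors, KDR, FLT4 and FLT1, had 51.1, 24.0 and 17.6, and TIE1, an angiopoietin co-receptor, had 48.8. VWF, the clotting protein stored in endothelium, had 25.2. LYVE1, a lymphatic marker, had 10.3, and the scavenger receptors STAB1 and STAB2 of sinusoids and macrophages had 30.5 and 4.96.

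The nervous system gave 2 lists of unlike make-up. Of 42 neuron symbols looked for, 25 were found. All 25 were at or above 1 RPM, beside 84.1% of all genes, and 5 (20%) exceeded 100, beside 16.4%. These 5 included STMN2, a microtubule destabiliser of growing axons (292), ELAVL4, a neuronal RNA binding protein (162), and MAP2. The others were GAP43, a growth cone protein (115), and CHGB, a granule protein of neuroendocrine cells (103). DCX, of migrating young neurons, had 61.9. Of the synapse genes, SNAP25, a vesicle fusion protein, had 52.5, SYT1, the calcium sensor of release, 17.8 and SYN1, synapsin, 4.85. A short list of transmitter genes spanned GABA synthesis by GAD67 and GAD2 (13.5 and 5.57), glutamate loading by SLC17A6 (6.06), GABA loading by SLC32A1 (6.20), noradrenaline synthesis by DBH and TH (2.81 and 1.61) and acetylcholine synthesis by CHAT (1.18).

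The neural progenitor list was dominated by genes that other tissues use as well. VIM took 72.3% of its reads. FABP7, a fatty acid binding protein of radial glia, had 1009.5. The transcription factors that divide the neural tube each took under 100 RPM, among them ZIC1 (86.1), PAX6 (73.9) and EMX2 (44.9), with SOX2 and SOX3, which keep neural cells undifferentiated, at 24.6 and 17.8. OTX2 of forebrain and midbrain had 13.1, EN1 of the midbrain-hindbrain border 7.99, and DBX1 and DBX2 of intermediate spinal cord 10.4 and 17.5. The Notch ligand DLL1 had 50.7 and its target HES5 80.0. OLIG3, of dorsal neural tube, was the only one of the 24 under 1, at 0.340.

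Genes of myelin-forming glia took few reads. SOX10, which marks neural crest and early glia, had 47.0, and PMP22, a myelin protein found in other tissues as well, 26.4. MBP, myelin basic protein, had 5.24, and MOG, a protein of central myelin, 0.920. All 16 neural crest regulators found, of 19 symbols looked for, reached 1 RPM, beside 84.1% of all genes. SNAI2, which drives cells out of the neural tube, led with 112. TFAP2B and TFAP2A had 51.0 and 33.6, and EDNRB2, an endothelin receptor of avian pigment cells, 57.2.

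Smaller lists of the nervous system and its borders were read in part. In the floor plate and notochord list the axon guidance genes SLIT3, SLIT2 and SLIT1 had 114, 80.8 and 74.99, SPON1, an adhesion protein of the floor plate, had 104, and NOG, a BMP antagonist, 12.2. In the choroid plexus and roof plate list 12 of 15 (80%) reached 1 RPM, near the 84.1% of all genes. There RSPO3, a WNT enhancer, had 23.0 and LMX1A, a roof plate regulator, 3.15. In the inner ear and placode list 10 of 16 (62.5%) reached 1 RPM, beside the same 84.1%. EYA4 had 21.3, OC90, a protein of ear stones, 15.8, and TECTB, of the membrane over hair cells, 0.0126 (1 read).

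Genes of the retina and pigment epithelium list lay between 0.164 (ARR3) and 54.5 (RLBP1). RLBP1, a retinaldehyde binding protein of pigment epithelium and Müller glia, was first. The pigment genes DCT, TYR and MITF had 53.1, 30.2 and 23.4. SIX6, of retinal progenitors, had 14.5, and ATOH7, which starts ganglion cells, 39.4. POU4F2, of ganglion cells themselves, had 4.57. Photoreceptor genes took few reads: CNGB3 and PRPH2, a channel and a disc protein of outer segments, had 0 reads. In the outer segment list 6 of 15 (40%) reached 1 RPM, beside 84.1% of all genes, and RGS9 led with 7.52.

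Liver and yolk sac genes were many but modest. Of 40 found, 31 (77.5%) reached 1 RPM and none reached 100, beside 84.1% and 16.4% of all genes. The sum of the 40 was 719. APOB, the protein of lipoprotein particles, led with 85.1, followed by TTR, which carries thyroid hormone, with 83.7. TTR is also in the choroid plexus and roof plate list. ALB had 59.5, and GC, the vitamin D binding protein, 48.7. LRP2, an endocytic receptor, had 20.7. The 3 fibrinogen chains, which form clots, had 80.4 (FGB), 38.9 (FGA) and 29.3 (FGG). Clotting factor genes F2, F10 and F9 had 16.2, 1.58 and 0.580.

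Most enzymes and regulators of the adult hepatocyte had under 10 RPM. HPD, of tyrosine breakdown, had 55.2, but TDO2, CPS1 and TAT, enzymes of tryptophan, ammonia and tyrosine metabolism, had 8.18, 3.83 and 3.20. The liver regulators CEBPA, HNF4A and NR1H4, a bile acid receptor, had 7.98, 0.806 and 0.643. CYP7A1, the first enzyme of bile acid synthesis, had 0.113 (9 reads), and SLC10A1, the bile salt uptake carrier, had 0. APOVLDLII, a yolk lipoprotein that the laying hen makes under oestrogen, had 0.227.

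Kidney genes mixed early regulators with few transport genes. AQP1, a water channel also of red cells and capillaries, had 111. The regulators SALL1, OSR1, EYA1, LHX1 and WT1 of kidney formation had 53.8, 43.5, 21.3, 11.2 and 8.81, and RET, the receptor for ureteric bud growth, 16.1. Tubule carriers SLC12A1, SLC34A1 and SLC12A3 had 2.08, 1.95 and 1.10, and SLC13A1, a sulfate carrier, had 0 reads. UPK3A and UPK1B, uroplakins of the lining of urinary passages, had 32.4 and 20.1.

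Gut, lung and pancreas genes were at the low end of the library. TACSTD1, which RefSeq names EPCAM and which marks epithelia in general, took 64.4% of the reads of the gut and lung list with 115. The gut regulators CDX2 and CDX4 had 0.151 and 0.0630, VIL1, villin of microvilli, 2.78, CDH17, the intestinal cadherin, 3.96, and NKX2-1, of lung and thyroid, 0.227. In the pancreas and endocrine list 9 of 22 (40.9%) reached 1 RPM, beside 84.1% of all genes. PDX1, the pancreas regulator, had 0.0756 (6 reads), INS, insulin, 0.340, GCG, glucagon, 3.81 and SST, somatostatin, which neurons also make, 22.7. PNLIP, pancreatic lipase, had 0 reads. TG, thyroglobulin, had 2.94, and CGA, the common pituitary hormone subunit, 0.466.

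In the gonad and germ cell list 16 of 22 (72.7%) reached 1 RPM and 8 reached 10, beside 84.1% and 62.4% of all genes. CXCL12, SOX9 (also in the cartilage list), KIT and CXCR4 had 77.9, 55.7, 29.7 and 26.4. DAZL, a germ cell RNA binding protein, had 1.79, PIWIL1, which guards germ cells against transposons, 8.73, and SYCP3, of meiotic chromosomes, 4.95. STRA8, the switch to meiosis, had 0.113, and CYP19A1, the aromatase of ovary, and PRDM14 had 0 reads. FOXL2, an ovarian and periocular regulator, had 15.1, LHX9, of the gonadal ridge and other tissues, 49.4. INHA, inhibin alpha, had 144 with 11393 reads, and an unnamed gene of the same strand of chromosome 7 had 11389 while its RefSeq neighbour OBSL1 had 11629. The part of reads of neighbouring genes in the INHA value was not tested.

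Genes of epidermis and of blood defence cells were read. DSP, desmoplakin of desmosomes, had 185, CLDN1, a tight junction protein, 137, CDH1, the epithelial cadherin, 86.7, PPL, periplakin, 75.7, and TP63, the regulator of stratified epithelium, 27.6. CDSN, of cornified skin, had 0.151. No keratin was found by name on chromosomes 1 to 21, so no value is given for keratins. Macrophage genes included CSF1R, the growth factor receptor of macrophages (41.8), SPI1, a myeloid regulator (12.7), MARCO, a scavenger receptor (6.64), and the complement genes C1QB, C1QA and C1QC (7.40, 5.33 and 2.65). Beside 84.1% of all genes, 4 of 15 (26.7%) in the list of antibody and T cell receptor machinery reached 1 RPM. They were FOXP3 (35.2), which RefSeq holds only as a synonym of FOXP1 and which took 56.7% of the reads of the list, BTK and BLNK, of B cell receptor signalling (11.7 and 7.20), and CD4, a co-receptor of T cells (4.90). Of the others, RAG1 and RAG2, which cut antigen receptor genes, had 0.0756 (6 reads) and 0.643, CD8A 0.0378 (3 reads) and PRF1, perforin, 0. In thrombocytes, the avian counterpart of platelets, TUBB1 had 129 and F13A1 39.8.

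The genes found of the adult oviduct, egg and feather list had under 10 RPM each, apart from SPINK5 and RBP5. VTG2 and VTG3, yolk vitellogenins that a hen's liver makes, had 2.10 and 0.428. SERPINB14, ovalbumin, had 8.71, its relative SERPINB14B 0.0882, LYZ, egg white lysozyme, 0.542, and TENP 2.91. The egg coat genes ZP3 and ZP2 had 2.90 and 1.18. SPINK5 and RBP5 made up 88.8% of the reads of this list with 95.5 and 64.5, so its sum is mostly that of this pair. The source of their reads was not tested.

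Limb genes gave 1201 RPM over 33 genes, of which 32 (97.0%) reached 1, beside 84.1% of all genes. Many limb genes also act in other parts of the embryo, so these values are no measure of the limb alone. MEIS2, MEIS1 and GHOX-7 (MSX1 in RefSeq), homeobox regulators, had 188, 96.5 and 77.5. TBX5 and TBX4, which set forelimb and hindlimb identity, had 56.7 and 14.4, and PITX1, the hindlimb regulator upstream of TBX4, 65.4. Signals of the limb bud differed in read share. The BMP ligands BMP4, BMP7 and BMP2 had 49.1, 30.1 and 14.3, SHH, the posterior signal, 6.20, FGF8 and FGF4, of the apical ridge, 1.01 (interval 0.799 to 1.25) and 0.365, WNT7A, the dorsal signal, 8.63, and GREM1, the BMP antagonist that links them, 6.49. Of other regulators in the limb list, GLI3 was at 35.0, HAND2 at 66.5, LMX1B, the dorsal regulator, at 24.5, and MSX2, a BMP target, at 57.0. SALL4, a zinc finger regulator degraded in human cells given thalidomide, had 11.7.

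HOX genes, which give cells their position along the body and limb axes, were found by name for 2 clusters, 9 of HOXA on chromosome 2 and 6 of HOXD on chromosome 7. All 15 reached 1 RPM and none reached 100, beside 84.1% and 16.4% of all genes. The median of the 15 was 9.94, beside 21.1 for all genes. In the HOXA cluster the anterior genes HOXA3 and HOXA4 had 32.7 and 22.3. In the middle lay HOXA6 (17.3), HOXA7 (10.5) and HOXA9 (9.94), and at the posterior end HOXA10 (7.81), HOXA11 (23.4) and HOXA13 (2.96). In the HOXD cluster HOXD12 (29.1) and HOXD8 (18.3) came first, followed by HOXD13 (9.06), HOXD4 (6.74), HOXD3 (3.89) and HOXD11 (1.51). From HOXA3 to HOXA10 each next gene found took a smaller share of reads, and HOXA11 took a larger one than HOXA10. HOXD12 took more reads than HOXD11 and HOXD13, and their counting intervals do not overlap its own.

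**Figure D4:**
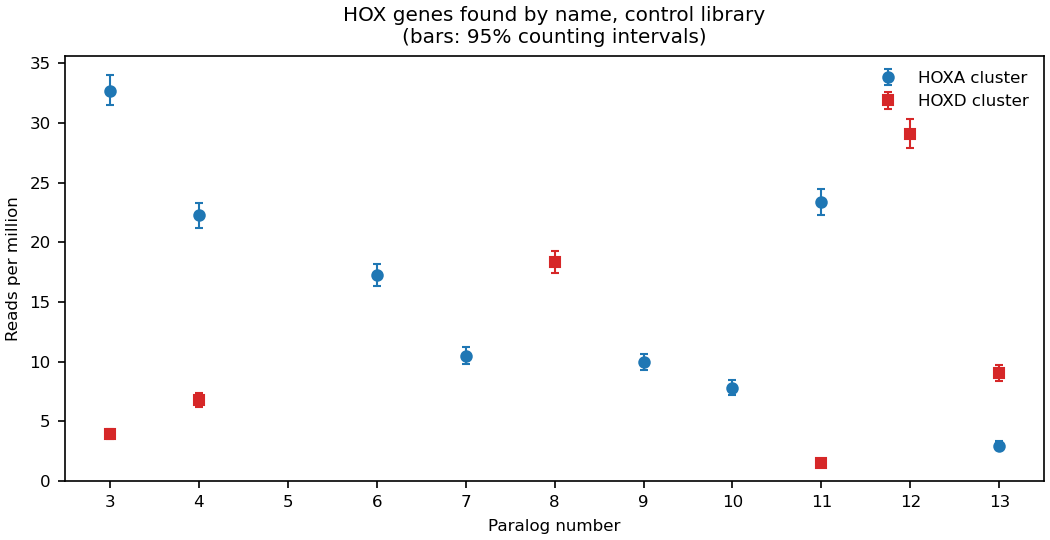
RPM (axis from 0) of 14 of the 15 HOX genes found by name against their paralog number, blue circles for the HOXA cluster and red squares for the HOXD cluster, with 95% counting intervals. HOXA3, HOXD12, HOXA11 and HOXA4 exceed 20, while HOXA13 and HOXD11 lie at 2.96 and 1.51.

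Genes of early trunk formation took few reads. T, the notochord and tail bud gene brachyury, had 12.6, TBX6 and MSGN1, of presomitic mesoderm, 0.932 and 0.0252 (2 reads), and MESP2, which sets somite borders, 0 reads. Of genes that act in somites and their derivatives, MEOX2 had 99.8, EYA2 80.3 and PAX3 18.4. LFNG, the modifier of Notch receptors, had 88.0.

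Of 14 genes with a symbol of FGF and a number, 9 (64.3%) reached 1 RPM, beside 84.1% of all genes. The most read were FGF12 and FGF13 (48.0 and 28.8), which act inside cells rather than as secreted ligands. Under older symbols, BFGF (FGF2 in RefSeq) had 13.9, FGF-18 5.73 and FHF-4 2.72. Of the receptors, FGFR2 had 185 and FGFR3 41.0. Of 13 WNT ligand genes 12 reached 1, with WNT11 (97.3) and WNT5A (74.2), which act through cell polarity pathways, first and WNT8B (0.920) last. The 7 Frizzled receptors had 12.3 (FZD5) to 137 (FZD1), with a median of 48.5 against 8.51 for the WNT genes. In the Hedgehog pathway SHH had 6.20, the signal transducer SMO 149, the co-receptor BOC 136, the inhibitor SUFU 90.9 and the effector GLI2 166. BMP4, BMP5 and BMP7 had 49.1, 30.1 and 30.1, and GDF8, myostatin, a brake on muscle growth, 12.02. These are shares of reads per gene and were not corrected for transcript length.

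The medians of the SOX, T-box and forkhead families were 19.9, 14.1 and 16.5, beside 21.1 for all genes. SOX genes were led by SOX11, of young neurons and mesenchyme (66.0), and 10 of 11 reached 1, where 84.1% of all genes did. T-box genes were led by TBX3 (58.5), TBX18 (57.1) and TBX5, with TBX19, of the pituitary, at 0.113. Among 21 forkhead genes FOXP2, FOXM1 and FOXK2 came first, with 83.8, 70.2 and 63.7; FOXM1 regulates mitotic genes. None of the 66 HOX, SOX, PAX, T-box and forkhead genes found reached 100 RPM, where 16.4% of all genes did.

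Genes of protein synthesis and folding took a large part of the reads. The 50 cytosolic ribosomal protein genes held 9.58% of all reads, each between 323 (RPL7L1) and 4871 (RPS3A), with a median of 1577. All 29 translation factors found reached 100, beside 16.4% of all genes. The factors included PABPC1, which binds mRNA tails (1898), EEF1D (1816) and EIF4A2, an RNA helicase (1637). Of the 53 mitochondrial ribosomal protein genes all reached 10 and 12 (22.6%) reached 100, beside 62.4% and 16.4% of all genes. The median of the 53 was 74.1. The 21 proteasome genes lay between 62.7 (PSMD10) and 407 (PSMC6), and 20 of them reached 100. The 7 subunits found of the chaperonin that folds actin and tubulin lay within 466 (CCT7) and 692 (TCP1), and the heat shock proteins HSP90AA1 and HSP90AB1 had 1296 and 1289.

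**Figure D5:**
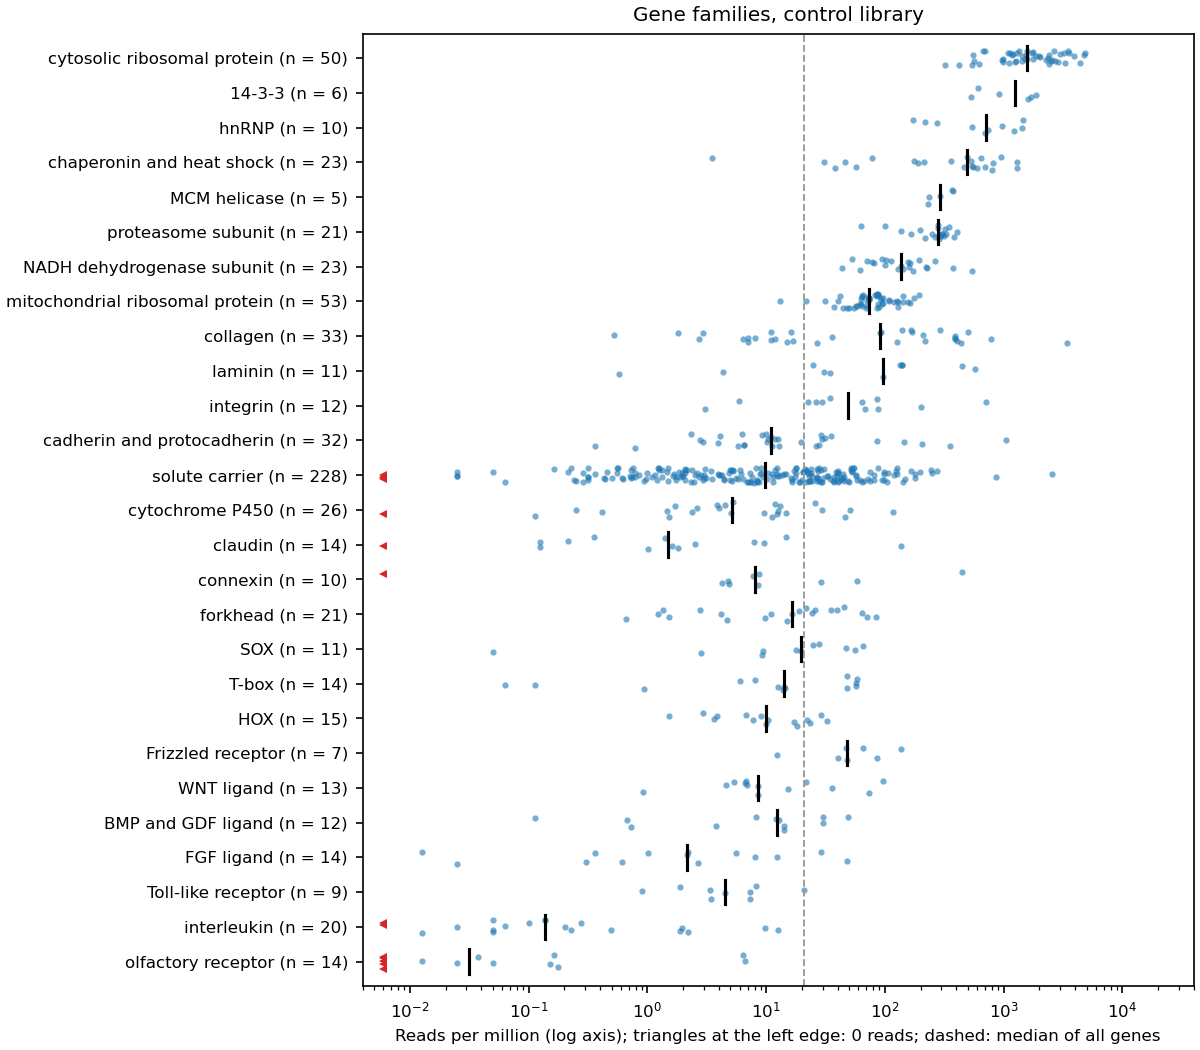
RPM (log axis) of each gene in 27 gene families, with 1 point per gene, a black bar at the family median and red triangles for genes with 0 reads; the dashed line is the median of all genes, 21.1. Ribosomal protein genes all lie above 300, and olfactory receptors and interleukins have medians of 0.0315 and 0.139.

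Energy and division genes were also read widely. Of 17 glycolysis genes 12 reached 100, with GAPDH, ENO1, enolase (3079), PKM2, pyruvate kinase (1405), and LDHB, the aerobic lactate dehydrogenase (1242), first. ENO2, the neuronal enolase, had 7.59, and SLC2A2, the glucose carrier of liver and pancreas, 0.970, where SLC2A1, the general carrier, had 245. All 33 cell cycle genes had at least 20.4 RPM, and 26 of them (78.8%) reached 100, beside 16.4% of all genes. The 5 MCM helicase genes, which unwind DNA for replication, lay between 233 and 373. CDC2, named CDK1 in RefSeq, the mitotic kinase, had 395, and CDK6, a kinase of early cycle entry, was last at 20.4. The 23 subunits of NADH dehydrogenase, the first complex of the respiratory chain, lay between 43.8 (NDUFV3) and 548 (NDUFA10).

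Among the 16 histone genes of the family searched by name, the replacement histone H2AFZ had 554. The macroH2A genes H2AFY2 and H2AFY had 386 and 207. Histone genes with the chick cluster names, which are used in DNA replication, included H4-I (15.9), H2A-VII (15.2) and H2B-I (12.1). H3-IX, which also has such a name but fell outside the 16, had 1617. Mature transcripts of replication histones lack a poly(A) tail, and how the library selected RNA is given only as a standard protocol.

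The laminins of basement membranes were led by LAMB1 (579.9) and LAMC1 (450.5). ITGB1, the common beta integrin, had 711. CDH11 and CDH2, cadherins of mesenchyme and of neural and muscle tissue, had 1043 and 353. GJA1, the widespread connexin, took 77.8% of the reads of the 10 connexin genes with 443. Of 228 genes named as solute carriers, 187 (82.0%) reached 1 RPM, near the 84.1% of all genes. Of the 228, 17 (7.46%) reached 100, beside 16.4% of all genes. A further 4 had 0 reads, beside 222 of all 13081 genes. In the cytochrome P450 family CYP51A1, of cholesterol synthesis, came first with 117, and CYP26B1 and CYP26A1, which clear retinoic acid, had 12.99 and 3.88.

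Sensory receptor and interleukin genes took few reads. Of 14 olfactory receptors 2 reached 1 RPM (14.3%, beside 84.1% of all genes), COR8 (6.67) and OR8D4 (6.39), and 5 had 0 reads. Among 20 interleukin genes and their receptors 5 reached 1, led by IL16 (12.6), and IL6 had 0.0504 (4 reads). Of the Toll-like receptors, which sense microbes, 8 of 9 (88.9%) were at 1 or more, near the 84.1% of all genes. TLR2-1 was first at 20.7. Of all 13081 genes, 222 had 0 reads. The members of the lists and families with 0 reads, under the same limit of 3 reads, numbered 22 of 1354, a similar share. Besides those named above with their tissues they were the olfactory receptors COR7A, COR3, OR9Q1, OR10A7 and OR52R1, the interleukins IL22 and IL3, the carriers SLC24A1 and SLC6A20, the junction genes GJA10 and CLDN16, the histone HIST1H2AH and SPATA16 of spermatids.

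Genes linked to the drugs of the other libraries were read here without drug. CRBN, which encodes cereblon, the thalidomide binding receptor of a ubiquitin ligase, had 17.8, and its ligase partners DDB1, CUL4B, CUL4A and RBX1 had 240.5, 124, 27.5 and 105. Of the Ikaros family of zinc finger genes, some members of which thalidomide analogs target in human cells, IKZF1, IKZF2 and IKZF5 had 1.42, 2.46 and 12.2, and CSNK1A1, a kinase that one analog targets, had 365. The nitric oxide synthases NOS2 and NOS1 had 18.5 and 7.02. The subunits of the nitric oxide receptor, GUCY1A3 and GUCY1B3, had 51.6 and 48.3, and their downstream kinase PRKG1 39.4. ODC1, which starts polyamine synthesis, had 489.5, and SMOX, which oxidises spermine, 30.6. All 24 genes of this list found, of 28 symbols looked for, were at or above 1.42, where 84.1% of all genes reached 1.

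By chromosome, shares of reads lay near shares of genes. Chromosomes 1 to 5 held 53.2% of genes and 52.3% of reads, 6 to 10 held 19.5% and 18.3%, and the microchromosomes 11 to 21 held 27.3% and 29.4%. Median RPM were 20.3, 20.7 and 22.4. Chromosome 19 had the most reads for its genes, 3.24% of reads on 2.48% of genes, and chromosome 6 the fewest, 3.07% on 4.37%. On chromosome 16, which carries the chick MHC, the median of 56 genes was 2.50 RPM, and 67.9% of them reached 1.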

How the data were processed

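RNA of 4 libraries was sequenced, and the control library is described here. Values are raw read counts per gene as deposited by the authors. Per the submitters' processing notes the tools were TopHat2 2.0.8 and DESeq and the build was galGal4, with Ensembl release 75 gene models per the file headers. How reads were counted, and whether strand was used, is not given in the sources used here. Genes outside chromosomes 1 to 21 are not analysed here.

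Counts were divided by the library's total over the genes of chromosomes 1 to 21 and multiplied by 1000000 to RPM. RPM and exact Clopper-Pearson intervals were computed in Python 3.11.15, pandas 2.3.3, numpy 2.4.6 and scipy 1.17.1. The intervals were run on counts drawn at random with known shares, the model they assume, so this checks the computation only. With 1 library no test was made. Other scalings used edgeR 4.0.16 and DESeq2 1.42.0 in R 4.3.3. Names were matched to RefSeq (assembly GRCg7b), which served for names, synonyms and gene order only. Where several genes bear a symbol, the one with the most reads was used, and 104 genes whose chromosome differs from that in RefSeq were left out of lists. That exclusion and the refused synonyms were chosen after the data were seen.

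The members and lists were chosen with earlier results of these data known. Named are the 30 named genes with the most reads or their range, the 4 members with the most reads in each list described, members with 0 reads, the haemoglobin, crystallin and HOX genes and 5 markers. Further members were named for their known roles after their values were seen. So were the subgroups, the genes set beside their neighbours, the 14-3-3 and MCM families and narrower name patterns for integrins, myosin light chains and heat shock proteins, and an interferon family was dropped. Some members are counted in the sums but are not reported here by name.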

Additional observations from a re-analysis of the deposited data

How the results depend on the processing

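The number of genes at or above 1 RPM was 10999. It was 11023 with haemoglobin genes left out of the total, 11149 with the 50 most read genes left out, 11084 under TMM scaling, 11071 under DESeq2 size factors and 9601 among genes with a symbol. With at least 20 reads asked for, 11908 genes were counted in place of 12859. The number of genes that hold 50% of the reads was 603, against 647 without haemoglobin and 597 with genes of 1 symbol summed. Of the 27 tissue lists, 11 summed to over 1000 RPM, 9 without the most read member of each (lens and neuron fell below) and 10 without members of another list (limb fell below). Added after the data were seen, keeping 1 gene of each opposite-strand pair gave 609 genes for 50% of reads, and keeping genes with a conflicting chromosome gave 11 lists. RPM per kilobase of coding length was not run, since no lengths were used. No paired analysis was possible because each group has 1 library, and no replicate could be left out. Depth limits values under about 1 RPM.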
